A study of Mus musculus with 8 samples.

Results

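The peaks described here are those of the 5-hydroxymethylcytosine (5hmC) lists that overlapped a window of 270 kb on mouse chromosome 8 from position 11190001, counted as in the lists, which match the build mm9, and in which the rule that defined it places the basement membrane collagen genes Col4a1 and Col4a2. Of 684512 peaks in 8 lists, 339 fell in this window. The groups, with 1 library each, were mouse embryonic fibroblasts (MEF), cells taken at D1, D3 and D5 after induction with OSNK or with OySyNyK, and induced pluripotent stem cells (iPSC). D is read as day. OSNK is known as the factors Oct4, Sox2, Nanog and Klf4, and OySyNyK as a set whose Oct4, Sox2 and Nanog carry an activation domain taken from YAP. By its title the iPSC line was made with OySyNyK. Per the labels' protocols, the fibroblasts were OG2-MEFs, vitamin C and LIF were added for reprogramming, and iPSC were kept on mitomycin C-treated MEF feeders. The share of feeder DNA in the iPSC library was not tested. Each library comes from bulk DNA, so that fewer cells with 5hmC and less 5hmC per cell cannot be told apart.

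Type IV collagen is the network-forming collagen of basement membranes. Col4a1 and Col4a2 encode its most widely expressed chains, alpha1 and alpha2, which assemble together into a triple helix and are made by fibroblasts and many other cells. The genes lie head to head and are read in opposite directions from a common promoter. 5hmC is made from 5-methylcytosine by TET enzymes and is often found in the bodies of transcribed genes and at enhancers.

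The promoter stretch that the pair shares is shown because the window was drawn round both genes. The sequences are from RefSeq in GRCm38.p6, which is another build than that of the peak lists, and run from 250 bases before to 50 bases after each start. Both symbols matched an entry. CG dinucleotides, the usual site of the modification, are in capitals.
Col4a1: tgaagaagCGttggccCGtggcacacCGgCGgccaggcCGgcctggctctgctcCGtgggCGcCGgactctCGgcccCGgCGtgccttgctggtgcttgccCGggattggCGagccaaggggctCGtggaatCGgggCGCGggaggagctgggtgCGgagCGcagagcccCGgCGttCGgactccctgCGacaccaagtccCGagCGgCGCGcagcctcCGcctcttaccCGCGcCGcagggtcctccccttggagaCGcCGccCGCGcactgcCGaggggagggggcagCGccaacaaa
Col4a2: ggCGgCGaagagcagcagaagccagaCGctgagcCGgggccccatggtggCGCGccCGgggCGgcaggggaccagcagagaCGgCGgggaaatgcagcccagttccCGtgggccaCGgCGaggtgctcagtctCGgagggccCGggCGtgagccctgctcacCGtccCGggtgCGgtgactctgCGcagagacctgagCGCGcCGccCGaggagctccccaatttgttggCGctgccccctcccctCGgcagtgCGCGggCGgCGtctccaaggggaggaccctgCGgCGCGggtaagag
Col4a1 is on the minus strand and Col4a2 on the plus strand. The last 78 bases of each sequence are the reverse complement of one another, so the starts of both genes lie within one short stretch. The Col4a1 sequence holds 37 CG in 300 bases and the Col4a2 sequence 33. The motif searched was CG, which reads the same on both strands. Of 32851 promoter windows of this length, 5.58% hold at least 37 and 8.56% hold at least 33, and the median is 7. No peak was assigned to this promoter, to an exon or to an intron, since no annotation in the build of the lists was used. In the RefSeq order of protein-coding genes Col4a1 comes before Col4a2, between Irs2 and Rab20. The lower end of the window is therefore called the Col4a1 side and the upper end the Col4a2 side, and the boundary between the genes was not placed.

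The window was chosen on measured values. One of its 100-kb bins, called the central bin here and lying directly above chr8:11200001-11300000, had among 25665 such bins the second largest drop in peak cover between MEF and iPSC, at -38.5 percentage points. The neighbouring bin chr8:11200001-11300000 had -19.2 points (rank 55). Above the central bin, chr8:11400001-11500000 had -5.37 points (rank 1851). Differences between MEF and iPSC in the window are therefore given as a description only. The intermediates took no part in the rule, but each difference from MEF uses the MEF list that did. Whole lists held 54938 peaks (iPSC) to 116302 peaks (OSNK D1). They covered 41.1 Mb (iPSC) to 98.2 Mb (OSNK D3). Depth is unknown, and scores and list lengths depend on it. No group has a replicate, so single groups are compared without a test, and the only test given is that of the methods paired by day.

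In the lists as deposited, peak cover, the share of the window's bases under a peak, stayed near the MEF value through D3 with both methods and was low in iPSC. It was 25.6% in MEF. With OSNK it was 25.5% at D1, 29.2% at D3 and 21.3% at D5. With OySyNyK it was 24.0% at D1, 24.4% at D3 and 18.7% at D5. In iPSC it was 2.74%. All 6 intermediates thus lay between 18.7% and 29.2%, and iPSC lay far below each of them. For OSNK the differences from MEF were -0.05, 3.59 and -4.26 points from D1 to D5. For OySyNyK they were -1.58, -1.16 and -6.88 points. Of these, the OSNK D1, OSNK D3, OySyNyK D1 and OySyNyK D3 differences change sign under other peak settings, while both D5 differences stayed below 0 in all of the settings run. The order of the days also depended on the setting. With equal numbers of peaks the differences from D1 to D5 were -7.53, 0.719 and -5.46 points for OSNK. For OySyNyK they were then -4.15, -4.40 and -7.39 points.

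**Figure D1:**
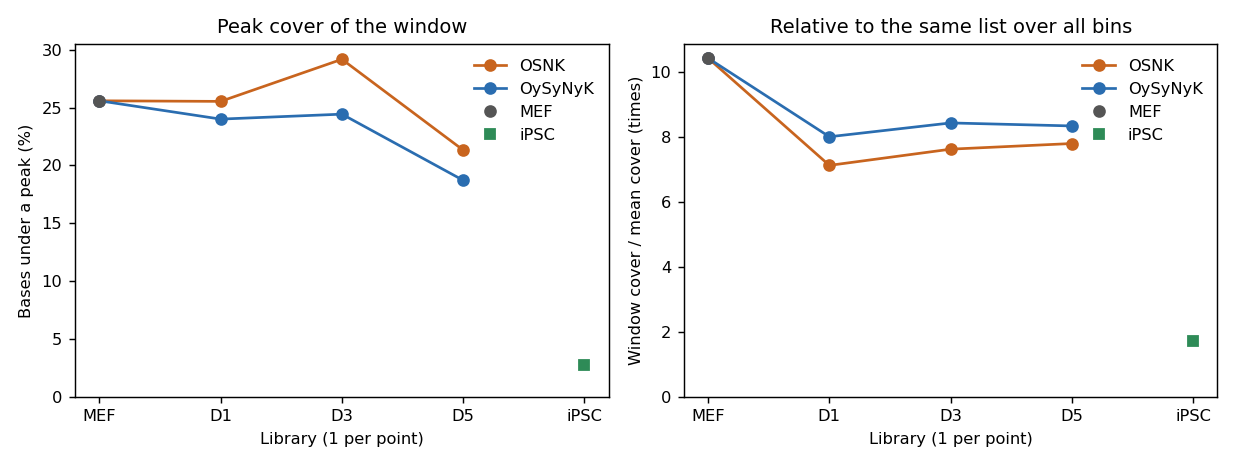
Peak cover of the Col4a1 and Col4a2 window in each library, as the percentage of bases under a peak (left) and divided by the mean cover of all 10-kb bins in the same list (right). Each point is 1 library, lines join MEF with the days of a method, and the square is iPSC. Cover lies between 18.7% and 29.2% in the intermediates and at 2.74% in iPSC.

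The lists differed in how much of the genome they covered, so the window was also set against its own list. Mean cover of all 256470 bins of 10 kb was 2.45% in MEF, and the median bin had a cover of 0 in each list. In MEF the window had 10.4 times the mean cover. The OSNK lists covered it 7.13, 7.62 and 7.80 times the mean from D1 to D5, the OySyNyK lists 8.01, 8.43 and 8.34 times. In iPSC the value was 1.71. On this scale every intermediate was below MEF, at 0.683 to 0.809 of its value, and none was near iPSC, at 0.164. The window was chosen as high in MEF and low in iPSC. A place between them can come from that choice alone, so nothing is read from this order. Among 9521 stretches of 270 kb laid end to end along the genome, 5 had more cover than the window in MEF. At D5, 54 had more for OSNK and 61 for OySyNyK. For iPSC the number was 1833. The MEF and iPSC numbers describe the lists on which the window was chosen.

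Peak number and peak width did not move together. MEF had 48 peaks in the window. OSNK had 58, 37 and 44 from D1 to D5, and OySyNyK had 51, 52 and 40. The iPSC list had 9. Median peak width was 1278 bp in MEF. For OSNK it was 1126, 1842 and 1100 bp from D1 to D5, and 1204, 1223.5 and 1099.5 bp for OySyNyK. The iPSC median was 745 bp. Thus OSNK D3 had the fewest peaks of the intermediates and the widest. Among the MEF peaks 8 were at least 2 kb wide, while OSNK had 3, 16 and 7 of these, OySyNyK 5, 6 and 5, and iPSC 0. The share of such wide peaks in the whole lists was not computed, so nothing is read from these counts. Whole lists also had their widest median at OSNK D3, 911 bp, and their narrowest in iPSC, 641 bp.

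Peak scores are the authors' values, by MACS convention -10 times the log10 of a peak's p-value. The median score in the window was 121 in MEF, against 103 for the whole MEF list. The OSNK medians from D1 to D5 were 129, 169 and 124 in the window, and 105, 91.4 and 81.3 for the lists. The OySyNyK medians were 150, 111 and 116, and 95.8, 84.2 and 75.8 for the lists. The iPSC window had a median of 58.1, below the 71.0 of its list. In every list but iPSC the window's median score was therefore above that of the list. The window was chosen as high in MEF and low in iPSC, so nothing is read from the order in MEF and iPSC. In every list the median peak width was also larger in the window than in the whole list. The part of width in the scores was not tested. Peaks with a score of at least 100 were 29 of 48 in MEF and 1 of 9 in iPSC. From D1 to D5 they were 37 of 58, 26 of 37 and 27 of 44 for OSNK, and 34 of 51, 27 of 52 and 23 of 40 for OySyNyK. As shares these were 60.4% in MEF and 11.1% in iPSC, against 51.6% and 23.6% of the whole lists. For OSNK they were 63.8%, 70.3% and 61.4%, against 52.4%, 44.4% and 35.6%. The OySyNyK shares were 66.7%, 51.9% and 57.5%, against 47.5%, 38.6% and 30.6%. The same limits hold for these shares.

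**Figure D2:**
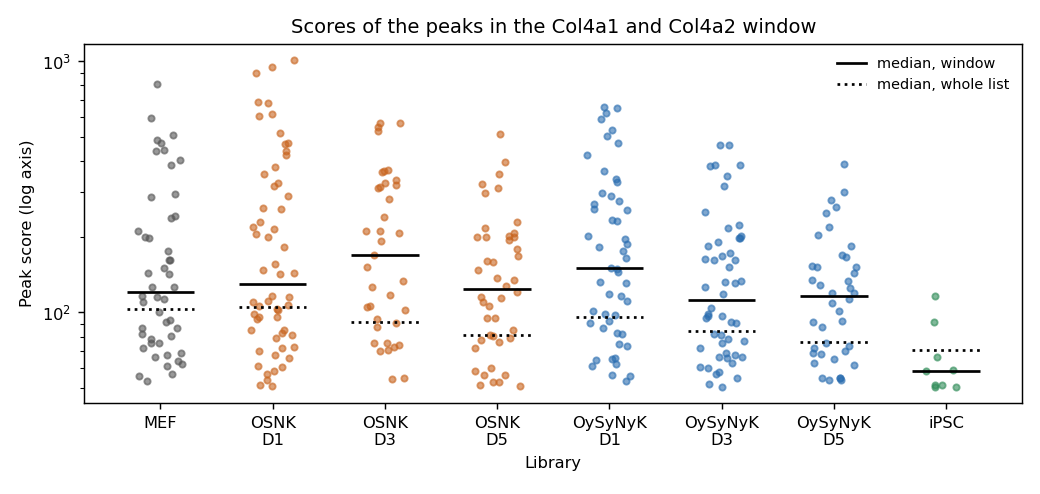
Score of each peak in the window (points, log axis) by library, with the median of the window (solid line) and of the whole list (dotted line). The window median is above the list median in MEF and the 6 intermediates and below it in iPSC, at 58.1 against 71.0. The window was chosen on the MEF and iPSC lists.

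Cover was concentrated in the middle of the window. In the 160 kb from chr8:11240001, MEF peaks took 37.5% of the bases and iPSC peaks 2.46%. The OSNK values there were 38.0%, 43.1% and 32.3% from D1 to D5, and those of OySyNyK 35.3%, 35.6% and 28.0%, so that all 6 were far above iPSC, and OSNK D1 and D3 above MEF. The lowest 50 kb had 5.79% in MEF and 5.06% in iPSC, and the uppermost 60 kb had 10.5% and 1.53%. Outside the window cover was lower. In the next 270 kb below it was 8.87% in MEF and 1.44% in iPSC, with 9.68% to 13.5% in the OSNK lists and 4.66% to 11.2% in the OySyNyK lists. In the next 270 kb above it was 1.44% in MEF and 2.64% in iPSC, with intermediates between 1.49% and 5.23%. The last MEF peak below the window ended 15937 bp from its edge (score 613) and the first one inside began 12915 bp from it (score 116). At the upper edge, the last MEF peak inside ended 37360 bp before it (score 110) and the first one outside began 64419 bp beyond it (score 221).

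**Figure D3:**
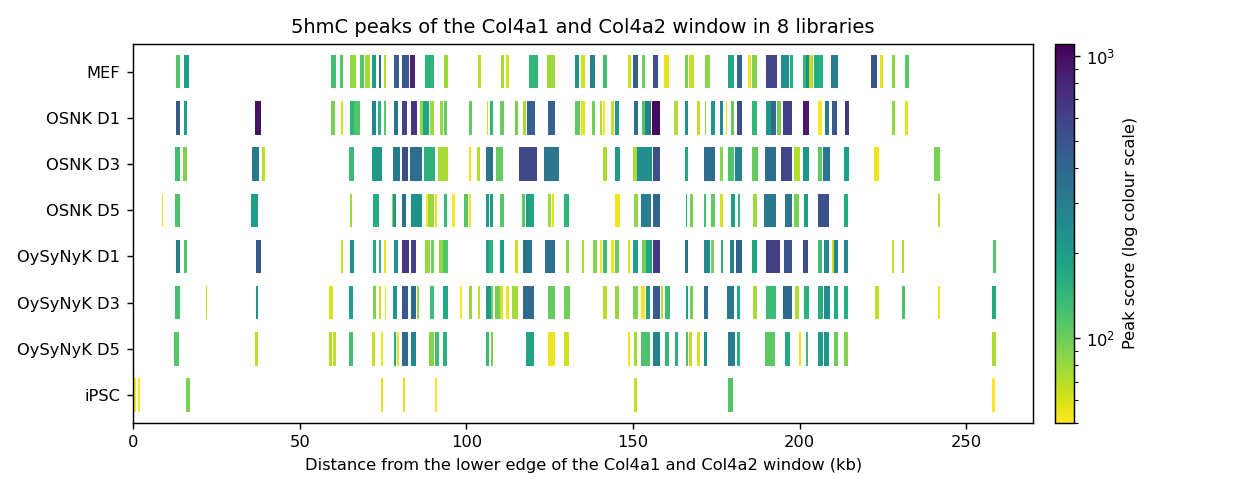
Peaks of the window in the 8 libraries, drawn to scale along the distance from its lower edge in kb and coloured by score on a log scale. Peaks crowd between 50 and 220 kb in MEF and the 6 intermediates, and iPSC has 9 short peaks.

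Bins of 10 kb showed where the cover lay. Of 27 bins, 20 held MEF peaks and 9 held iPSC peaks. In MEF the fullest bin was chr8:11380001-11390000 at 67.5%. The OSNK lists covered 68.1%, 83.0% and 67.0% of it from D1 to D5, the OySyNyK lists 64.0%, 69.9% and 43.9%, and iPSC had no peak in it. It was thus close to MEF at D1 and D5 of OSNK and higher at D3, and was lower at OySyNyK D5. OSNK D3 had the fullest bin of any list, chr8:11270001-11280000 at 85.1%, against 60.1% in MEF, 47.4% at OySyNyK D3 and 6.02% in iPSC. The difference of -37.7 points in that bin was the largest between the methods at D3. Cover in iPSC was below that of each of the 6 intermediates in 17 bins and above each of them in 1, chr8:11190001-11200000. The window was chosen on its low iPSC cover, and the share over all bins was not computed. Nothing is therefore read from these counts.

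In other bins the intermediates were far below MEF. The largest difference downward from MEF to OSNK D5 was in chr8:11250001-11260000, with 51.9% in MEF and 39.6%, 15.4% and 7.75% at D1, D3 and D5. OySyNyK had 17.6%, 12.0% and 22.2% there, and the D1 difference of -22.0 points was the largest between the methods on that day. On the Col4a2 side, chr8:11410001-11420000 had the largest such difference to OySyNyK D5. MEF peaks covered 38.6% of it. OSNK covered 9.60%, 13.6% and 0% from D1 to D5, and OySyNyK 4.94%, 12.6% and 0%, so that both methods were low there by D1. At D5 the methods differed most in chr8:11350001-11360000, with 16.3% at OSNK D5, 41.9% at OySyNyK D5 and 31.7% in MEF. No list had a peak in chr8:11230001-11240000 or in the last 10 kb of the window, from chr8:11450001.

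**Figure D4:**
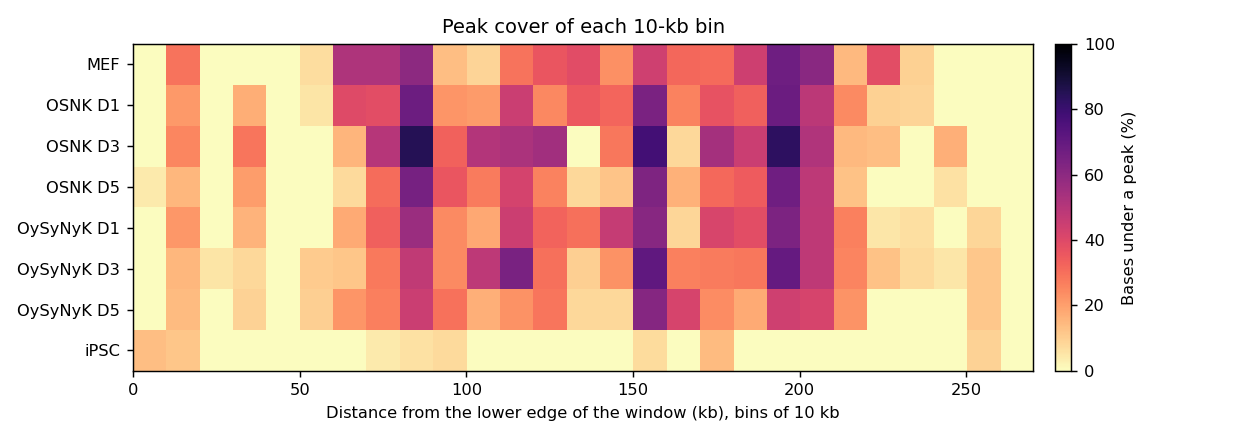
Percentage of bases under a peak in each 10-kb bin of the window (horizontal axis, distance from its lower edge in kb) and library (rows). The dark bins near 85 and 195 kb stay dark through D5 of OSNK, the bin at 220 to 230 kb is pale from D1 on with both methods, and the iPSC row is pale throughout.

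A bin was counted as lower or higher where it differed by at least 10 percentage points, over bins with at least 10% cover in the list of reference. In the window 17 bins had that cover in MEF, and 22290 bins had it in the genome. With OSNK, 6, 4 and 9 of the 17 were lower than MEF at D1, D3 and D5, against 16.4%, 31% and 45.2% of all such bins, and 2, 7 and 3 were higher, against 14.2%, 21.7% and 10.7%. With OySyNyK, 5, 8 and 10 were lower, against 19.3%, 35.7% and 50.1%, and 6, 4 and 3 were higher, against 11.2%, 12.7% and 8.06%. From D1 to D5 the shares lower were thus 35.3%, 23.5% and 52.9% with OSNK and 29.4%, 47.1% and 58.8% with OySyNyK. Those higher were 11.8%, 41.2% and 17.6% with OSNK and 35.3%, 23.5% and 17.6% with OySyNyK. The bins were not matched for their cover in MEF, which limits how far a bin can fall. Neither a likeness to all bins nor a difference from them is therefore read from these shares. In iPSC 16 of the 17 were lower, against 73.4% of all, a contrast the window was chosen on. From D5 to iPSC, 15 of 16 bins were lower after OSNK, against 72.2%, and 13 of 16 after OySyNyK, against 59.4%. These steps share the iPSC list with the choice of the window, and nothing is read from them.

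Single MEF peaks were followed by asking whether each had a peak of at least 1 bp overlap in another list. Of the 48 MEF peaks, 37 were overlapped at OSNK D1, which is 77.1% (95% exact interval 62.7 to 88.0). At OSNK D3 30 were (62.5%, 47.4 to 76.0), and at OSNK D5 26 were (54.2%, 39.2 to 68.6). For all 65776 MEF peaks the shares were 74.5%, 50.5% and 41.3%, which lie within these intervals. With OySyNyK, 35 were overlapped at D1 and 35 at D3, in each case 72.9% (58.2 to 84.7), and 28 at D5 (58.3%, 43.2 to 72.4). The shares of all MEF peaks were 70.4%, 49.5% and 36.3%, and those at D3 and D5 lie below the intervals. In iPSC 5 of the 48 were overlapped (10.4%, 3.47 to 22.7), against 17.4% of all, a contrast the window was chosen on. The intervals cover counting error only. The MEF peaks of the window were also wider than those of the whole list, with medians of 1278 and 841 bp. With all peaks set to 500 bp, the shares at OySyNyK D3 and D5 were 56.2% (41.2 to 70.5) and 43.8% (29.5 to 58.8), and those of all MEF peaks, 44.3% and 31.6%, lay within these intervals. The OSNK shares at D3 and D5 were then 41.7% and 35.4%, against 42.4% and 36.1% of all. Over the 6 settings run, the share of all MEF peaks lay below the window's interval in 3 at OSNK D3, 3 at OSNK D5, 4 at OySyNyK D3 and 5 at OySyNyK D5, and within it in the others. With the score minimum of 100, for example, OSNK D5 had 55.2% (35.7 to 73.6) against 28.4% and OySyNyK D5 51.7% (32.5 to 70.6) against 22.4%.

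**Figure D5:**
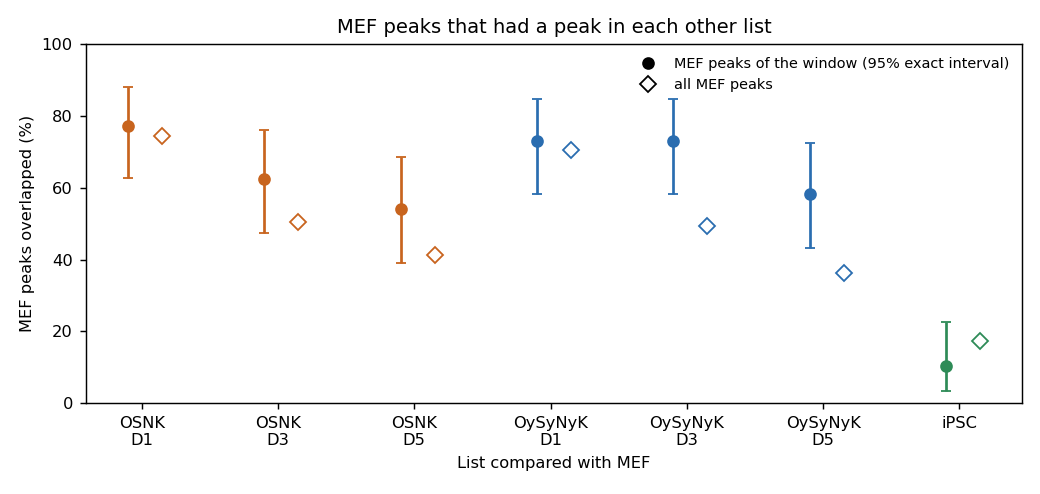
Share of the 48 MEF peaks of the window (filled circles, bars are 95% exact intervals for counting error) and of all 65776 MEF peaks (open diamonds) that had a peak in each other list. At OySyNyK D3 and D5 the window's 72.9% and 58.3% stand beside 49.5% and 36.3% for all MEF peaks.

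Presence over the days was followed for each of these peaks. With OSNK 25 of the 48 were present on all 3 days, 3 until D3, 9 at D1 only and 8 on none, and 3 were missing at D1 and found later. With OySyNyK 24 were present on all 3 days, 5 until D3, 5 at D1 only and 7 on none, and 7 were missing on a day and found on a later one, 6 of them missing at D1. The share present on all 3 days was 52.1% with OSNK (37.2 to 66.7) and 50.0% with OySyNyK (35.2 to 64.8), against 34.2% and 29.5% of all MEF peaks. Found on no day were 16.7% and 14.6%, against 20.6% and 23.4%. Of the 48, 22 were found in all 6 intermediates, and 5 were found in none of them, which is 45.8% (31.4 to 60.8) and 10.4% (3.47 to 22.7), against 22.5% and 14.0% of all MEF peaks. At D5, 23 were found with both methods, 3 with OSNK only, 5 with OySyNyK only and 17 with neither. For all MEF peaks these shares were 27.7%, 13.6%, 8.65% and 50.0%, and those of the window 47.9%, 6.25%, 10.4% and 35.4%. These shares are for peaks as deposited, and the wider MEF peaks of the window touch them too. By score, of the 24 with the highest scores, 16 were found at OSNK D5 and 18 at OySyNyK D5, and of the 24 with the lowest, 10 in each. The difference between strong and weak peaks was not tested. The same split was not made for all MEF peaks, so it is not shown to be particular to the window.

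The highest-scoring MEF peak, chr8:11273171-11274630, had a score of 814. From D1 to D5 the best overlapping peak scored 688, 365 and 228 in the OSNK lists and 587, 387 and 262 in the OySyNyK lists. The iPSC list had none. Scores here were lower on each later day with both methods. The widest MEF peak, chr8:11379910-11383167 with 3258 bp, scored 593 in MEF and had no iPSC peak. Its scores from D1 to D5 were 380, 362 and 314 for OSNK, and 620, 133 and 109 for OySyNyK. It was also under the widest peak of OSNK D5 (3651 bp), OySyNyK D1 (4069 bp) and OySyNyK D5 (3015 bp).

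The top peaks of the intermediate lists were picked for their scores there, so a score above MEF comes in part from that choice. Not all of the scores at these places were above MEF. The top peak of both D1 lists was at chr8:11345809-11348062 in OSNK D1, with a score of 1008, and 658 in OySyNyK D1. MEF scored 507 there, OSNK 527 and 396 at D3 and D5, OySyNyK 461 and 281, and iPSC had no peak. At OSNK D3 a peak of 5203 bp, chr8:11305879-11311081, was both the widest and the highest, with 568 against 142 in MEF. Its best overlapping peak at OySyNyK D3 scored 382 and was that list's widest, at 3348 bp. At OSNK D5 the top peak was chr8:11395463-11398862 with 512, against 162 in MEF and 218 at OySyNyK D5. The top peak of OySyNyK D3 and D5 was at chr8:11270594-11272615 in the latter, with 391, and 464 at D3, against 470 in MEF.

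The 9 iPSC peaks were 422 to 1451 bp wide and scored 50.4 to 116, with 8 of them under 100. The lowest score in any list was 50. The strongest, chr8:11368578-11370028, scored 116 and was 1451 bp wide. At this place MEF scored 176. OSNK scored 103, 117 and 194 from D1 to D5, and OySyNyK 277, 317 and 302. OySyNyK scored above MEF there on all 3 days. Another iPSC peak, chr8:11205967-11207153 with 91.5, overlapped peaks in MEF (197), OSNK D1 (200), OSNK D3 (90.8) and OySyNyK D1 (116) and in none of the other lists.

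Of the remaining iPSC peaks, chr8:11271061-11271662 (58.1) and chr8:11340332-11341055 (66.2) overlapped a peak in all 7 other lists, with MEF scores of 470 and 443. The peak chr8:11264422-11264843 (58.7) overlapped MEF, OSNK D3, OySyNyK D1 and OySyNyK D5. Found at D5 of both methods and not in MEF was chr8:11280555-11281299 (50.4), with 56.5 with OSNK and 128 with OySyNyK. Found with OySyNyK alone was chr8:11447755-11448672 (50.4), on all 3 days, with scores of 111, 168 and 73.7. The peaks chr8:11190251-11190837 (51.1) and chr8:11191342-11192099 (51.1) overlapped no peak of another list. Thus 6 of the 9 were overlapped at OySyNyK D5 and 4 at OSNK D5, against 38.9% and 30.9% of all iPSC peaks, with exact intervals of 29.9% to 92.5% and 13.7% to 78.8%.

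Merging the peaks of all lists gave 71 regions in the window, with a median width of 1517 bp. Merging also joins peaks that meet only through a peak of another list. Of the 71, 5 held a peak of all 8 lists, against 2.58% of 222732 regions of the genome. They were chr8:11261667-11264843, chr8:11270591-11272741, chr8:11280521-11284428, chr8:11340041-11345663 and chr8:11368310-11370464. In the first and the third of these the iPSC peak itself met peaks of only some lists, so 3 of the 9 iPSC peaks overlapped a peak in all 7 others. A further 15 regions (21.1%, 12.3 to 32.4) were present in MEF and all 6 intermediates and not in iPSC, against 4.11% of the genome's, a pattern that uses the contrast the window was chosen on. The median of their best scores was 162 in MEF. From D1 to D5 it was 424, 321 and 200 for OSNK, and 338, 198 and 153 for OySyNyK. The median of these regions, held by 7 lists, was thus highest at D1 with both methods, though some single regions scored higher on a later day. The whole-list medians given above were also highest at D1 among the days, but that of OySyNyK was below MEF. In MEF alone were 5 regions and in iPSC alone 2, against 3.70% and 10.9% of the genome's regions. All of these shares use the lists the window was chosen on, so nothing is read from their differences from the genome.

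Regions seen in intermediates and in neither MEF nor iPSC numbered 24 (33.8%), against 53.5% of the genome's regions. This share too uses the lists the window was chosen on, so nothing is read from the difference. Of the 24, 14 were found with both methods, 6 with OSNK only and 4 with OySyNyK only. The first is 58.3% of the 24 (36.6 to 77.9), against 38.1% of such regions in the genome, which lies within the interval. In a single list were 9 of them, and in all 6 intermediates 3 (12.5%, 2.66 to 32.4, against 5.10% in the genome), which are given here after their values were seen. The region chr8:11225486-11228335 on the Col4a1 side scored 950, 314 and 200 from D1 to D5 of OSNK, and 471, 224 and 69.9 for OySyNyK. On the Col4a2 side, chr8:11403261-11404739 scored 680, 191 and 167 for OSNK, and 270, 162 and 91.2 for OySyNyK. The third, chr8:11295835-11298050, scored 144, 336 and 207 for OSNK, and 202, 201 and 134 for OySyNyK. The first and the second scored highest at D1 with both methods. At OySyNyK D5 both were below the window's median of 116. Also named after seeing its values, the MEF peak chr8:11411320-11413193 scored 486 in MEF and had no peak at D1 or D5 with either method, with 54.4 and 66.2 at D3 of OSNK and OySyNyK.

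The methods covered much of the same sequence here. From D1 to D5, 65.9%, 55.2% and 50.5% of the bases under a peak of either method were under peaks of both. Over the genome these values were 47.8%, 38.0% and 33.0%, so both were lower on each later day. The genome was not matched for cover, which was higher in the window, so nothing is read from the difference. At D5, 36265 bases of the window were covered with both methods, 21327 with OSNK only and 14277 with OySyNyK only. OySyNyK minus OSNK cover was -1.53, -4.75 and -2.61 points at D1, D3 and D5. Paired by day, the mean difference was -2.96 points ± 1.63 (SD, n = 3 pairs), lower in 3 of 3, with a two-sided exact sign-flip permutation p of 0.25, the smallest that 3 pairs can give. Divided by the cover of each list over the genome, the order turned, and OySyNyK had 1.12, 1.11 and 1.07 times the OSNK value, with a mean ratio of 1.10 and the same exact p of 0.25. The days are not replicates, so neither the SD nor p measures a spread between replicate libraries. Nothing is read from this test.

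In bins with at least 10% cover with OSNK, OySyNyK was lower by at least 10 points in 3 of 18 at D1, 9 of 18 at D3 and 6 of 16 at D5, against 21.8%, 43.9% and 38.6% of such bins in the genome. It was higher in 1, 2 and 1, against 3.86%, 3.99% and 6.07%. The shares lower, 16.7%, 50.0% and 37.5%, were near those of the genome, but these bins too were not matched for their cover in the list of reference.

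By their 8 cover values, the 3 stretches of 270 kb most like the window, among 9519, were chr18:60750001-61020000, chr14:26190001-26460000 and chr1:92880001-93150000. Likeness was the Euclidean distance, at 6.67, 8.25 and 8.54 percentage points. They had 28.6%, 23.8% and 18.3% cover in MEF, 17.2%, 17.8% and 19.95% at OSNK D5, 19.0%, 17.9% and 18.0% at OySyNyK D5, and 5.996%, 7.05% and 5.17% in iPSC. All 3 had more cover in iPSC than the window did. The window was chosen on its low iPSC value, so nothing is read from this. They were not assigned to genes.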

How the data were processed

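5hmC was profiled in 8 mouse libraries by chemical capture: per the labels' protocols, sonicated DNA was tagged at 5hmC with an azide sugar, biotinylated, pulled down with streptavidin beads and sequenced. The authors deposited a separate peak list for each library, called per sample. Each peak has a score as deposited, by MACS convention -10 times the log10 of its p-value; the lowest in any list was 50. Per the submitters' processing notes the tools were Bowtie and MACS. Their settings, or whether an input was used, are not given in the sources here, and depth is unknown. The builds in those notes, hg18 and NCBI36, are human, whereas the lists hold 20 mouse chromosomes. Peaks ran beyond the last GRCm38 gene on 10 of them and up to position 197168143 on chromosome 1, and mm9 is the build they match from general knowledge. Coordinates count from 1.

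Cover was computed in Python 3.11.15 with numpy 2.4.6, pandas 2.3.3 and scipy 1.17.1, tested on simulated intervals and checked against bedtools 2.31.1. Figures used matplotlib 3.10.9. Cover of 10-kb and longer bins was taken between the first and last peak of each chromosome. The methods were compared over the 3 days by an exact two-sided sign-flip permutation test, added after seeing the data, although the days are not replicates. Named were each iPSC peak, the top and widest peak of each list, regions in all lists, the bins with the largest falls to D5 and method differences, empty bins, and the 3 most similar windows. Other basement membrane genes were not placed, as no annotation of the build was used. The window and these rules were chosen with earlier results of these data known. Alternatives were a score of at least 100, the 54938 best-scoring peaks of each list, peaks of 500 bp round their midpoints, peaks within 1 kb merged, the central 100-kb bin alone, an overlap of at least 50% of the MEF peak and division by genome cover.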

Additional observations from a re-analysis of the deposited data

Results flagged for a closer look

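At D3 the methods lay on opposite sides of MEF in the window as a whole, with cover higher by 3.59 percentage points with OSNK and differing by -1.16 points with OySyNyK. With 1 library per group this difference was not tested. It depended on the setting. With peaks of 500 bp the sides were exchanged, at -2.04 points with OSNK and 0.741 with OySyNyK. Relative to genome cover both were below MEF, at 0.731 of its value with OSNK and 0.809 with OySyNyK. OSNK D3 was also the list with the widest peaks, both in the window and over the genome, and the part of peak width in the difference was not tested.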

How the results depend on the processing

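The iPSC list covered less of the window than MEF under every setting run, and the D5 lists of both methods were below MEF under all 6 settings run for that comparison. The smaller differences between MEF and the D1 and D3 lists, and between the methods, changed sign with the setting and are not settled by these lists. A cover was taken as unmoved within the exact 95% interval of its share of 270 stretches of 1 kb, a count within 1.5 times. Depth is unknown, so a place without a peak is not shown to lack 5hmC. With the methods paired by day, a block chosen after seeing the data, the mean difference was -2.96 points and, relative to genome cover, the mean ratio 1.10, which reverses the order. Both gave an exact sign-flip permutation p of 0.25. The days are not replicates, and nothing is read from it.

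With the score minimum of 100, cover was 17.1% in MEF and 0.537% in iPSC. From D1 to D5 it was 19.0%, 23.9% and 15.6% for OSNK, and 18.7%, 15.6% and 12.5% for OySyNyK. Counts were 29 in MEF, 37 and 27 at OSNK D1 and D5, 27 and 23 at OySyNyK D3 and D5 and 1 in iPSC. The OSNK D1 and OySyNyK D1 differences from MEF were 1.96 and 1.62 points, that of iPSC -16.5. MEF peaks overlapped were 55.2% at OySyNyK D3 and 3.45% in iPSC.

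With equal numbers of peaks, OSNK D1 had 32 peaks and 16.9% cover, -7.53 points from MEF and 53.3% of MEF peaks overlapped. The method difference at D1 was 3.37 points, and 55.6% were overlapped at OySyNyK D3. With peaks of 500 bp, cover was 8.89% in MEF, 10.7%, 6.85% and 8.15% with OSNK and 9.44%, 9.63% and 7.41% with OySyNyK. Differences from MEF were 1.85 and -2.04 points at OSNK D1 and D3, 0.556 and 0.741 at OySyNyK D1 and D3 and -7.22 in iPSC, and the method difference at D3 was 2.78. MEF peaks overlapped were 62.5%, 41.7% and 35.4% with OSNK and 56.2% at OySyNyK D3. With peaks within 1 kb merged, MEF had 31 peaks and 90.3% of them were overlapped at OSNK D1.

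In the central 100-kb bin alone, cover was 40.6% in MEF, 41.5%, 45.5% and 35.0% with OSNK and 41.4%, 39.8% and 29.8% with OySyNyK. Counts were 28, then 34, 20 and 24, then 29, 26 and 21, and 2 in iPSC. The OSNK D1 and OySyNyK D1 differences were 0.81 and 0.806 points and that of iPSC -38.5. Relative to genome cover, OSNK D3 was 0.731 of MEF, and OySyNyK was 1.12, 1.11 and 1.07 times OSNK at D1, D3 and D5. Fewer or narrower peaks lower cover by construction, and the cause of the changes of sign was not tested.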
